A study of Homo sapiens with 24 samples.

Results

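The comparison concerns gene expression in MV4-11 cells on day 2 of treatment with EPZ004777, an inhibitor of the histone methyltransferase DOT1L, against vehicle. It rests on 6 of the 24 arrays of the series, chosen by the cell line, agent and day in their titles. The treated group holds 3 biological replicates grown with 3 uM EPZ004777, and the vehicle group holds 3 grown with 0.1% DMSO. MV4-11 is an established line, labelled as a biphenotypic B myelomonocytic leukemia with the MLL-AF4 rearrangement, so both groups carry that fusion, and both grew in IMDM with 10% FBS. The other arrays cover MV4-11 cells on days 4 and 6 and MOLM-13 cells on day 6, each with 3 treated and 3 vehicle cultures. The labels do not say how the replicate cultures were made, and the p-values measure the spread between these samples.

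DOT1L places methyl groups on a lysine in the globular core of histone H3 in the body of transcribed genes. In leukemias with a rearranged MLL gene (KMT2A), the fusion protein draws DOT1L to its target genes, and cells of such lines are known to take on features of more mature myeloid cells when the enzyme is blocked. The methyl mark is lost slowly, with histone turnover and cell division, so an early time point catches the first genes to move. The question of the comparison is which genes already differ on day 2. The 3 groups of genes that usually lead such lists, those of MHC class II, of amino acid and endoplasmic reticulum stress, and of sterol synthesis, are left aside here.

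Expression was measured on arrays with 54675 probe sets, as intensities that the submitters' notes credit to GCRMA. All levels below are log2 intensities, and every change is the log2 ratio of the treated mean to the vehicle mean ± SE of the model, with 3 arrays per group. A change of 1 is therefore a 2-fold change. The lowest log2 value, 2.19, was shared by all arrays, and a level near it cannot be read as expression. In bulk RNA, a change in the level per cell cannot be told apart from a change in the share of cells that express the gene. Arrays within a group had a mean correlation of 0.9979 in treated and 0.9976 in vehicle cultures. The difference between 3′ and 5′ control probe sets of ACTB and GAPDH, a measure of RNA and labelling quality, was 0.525 to 0.574 in treated and 0.641 to 0.676 in vehicle arrays, and these ranges did not overlap. With that difference as a covariate, 1731 genes passed the test in place of 1372.

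The labelled cell type was set against its markers. Of 14 myelomonocytic markers, 11 were tested, and they included LYZ, the secreted lysozyme of myeloid cells, at a mean of 14.14 in treated and 14.03 in vehicle cultures, and CEBPA at 12.72 and 12.67. CD14 and ANPEP, surface markers of mature monocytes, stood at the lowest value in both groups. Summed myelomonocytic intensity was 29750 to 32680 in treated and 27670 to 29600 in vehicle arrays. Of the 11 tested markers, 3 were higher (27.3%, against 8.82% of all genes), among them CSF1R by 0.81 and ITGAM by 1.60. None was lower by limma or at an unadjusted p under 0.05. Markers of other cells were mostly low. Of 12 T and NK cell markers, 10 stood at the lowest value in all 6 arrays, as did 6 of 9 megakaryocyte markers. The summed intensity of the B-lymphoid markers, a lineage the label names, was 763 to 826.5 in treated and 507.2 to 572.6 in vehicle arrays, with 2 of 3 tested markers higher, IGLL1 by 0.57 ± 0.15 and PAX5 by 0.85 ± 0.26. Summed T and NK intensity was 1427 to 1509 in treated and 1110 to 1240 in vehicle arrays and NKG7, the only called member, also occurs in myeloid cells. Summed megakaryocyte intensity was 248.9 to 284.8 in treated and 160.6 to 202.2 in vehicle arrays, with NFE2 and ITGA2B higher. Summed stromal and epithelial intensity overlapped, at 659.5 to 765.5 in treated and 649.8 to 759.3 in vehicle arrays, with 0 of 3 tested markers called by limma and 0 at an unadjusted p under 0.05. Summed erythroid intensity was 205.5 to 232.1 in treated and 168.5 to 197.4 in vehicle arrays, with 0 of 1 tested marker called by limma and 1 higher at an unadjusted p under 0.05. The part of these marker levels in the results was not tested.

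Genes that differed on day 2 were mostly higher in treated cells. Of 10971 genes tested, 1372 (12.5%) were called at an adjusted p under 0.05, of which 968 (8.82%) were higher and 404 (3.68%) lower. The changes were small for most of them, with a median of 0.47 among the higher and -0.32 among the lower genes, against a median of 0.02 over all genes tested. A change of at least 2-fold was found for 143 genes (1.3%), of which 124 (1.13%) were higher and 19 (0.173%) lower. The treated and vehicle arrays did not overlap for 4267 genes (38.9%). Without any 1 of the 6 arrays, the count of called genes fell to between 909 (without vehicle replicate 1) and 981 (without treated replicate 1). The 404 lower genes were also fewer without any 1 of the 6 arrays, from 209 (without treated replicate 3) to 285 (without treated replicate 1).

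**Figure D1:**
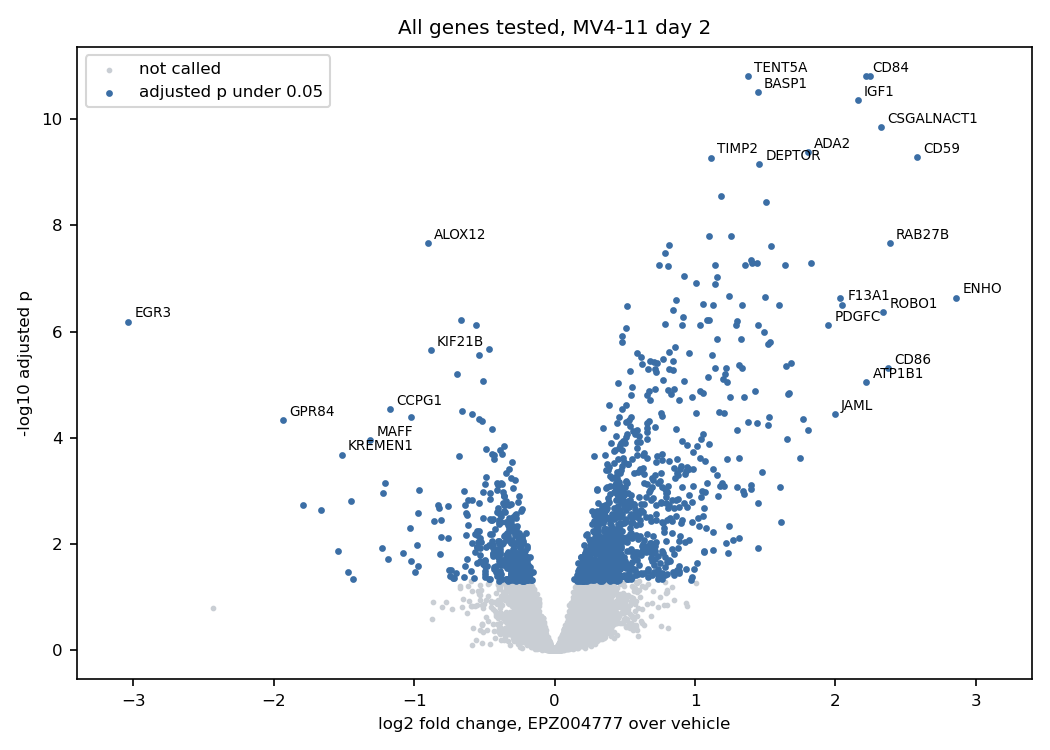
Each point is 1 of the 10971 genes tested, with the log2 fold change of EPZ004777 over vehicle on day 2 on the x axis and -log10 of the adjusted p on the y axis. Blue points are the 1372 called genes, most of which lie to the right of 0, and the labelled genes are among those described in the text.

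The 14 largest rises among genes whose group means were both at least log2 5 included IGF1, CD84, F13A1 and PDGFC, and their choice required groups that did not overlap. IGF1, the insulin-like growth factor 1, had log2 levels of 10.04, 10.03 and 9.95 in treated cultures, against 7.70, 7.88 and 7.95 in vehicle cultures. Its rise was 2.16 ± 0.11 (adjusted p = 4.35e-11), and 3 further probe sets of the gene gave 2.19, 2.03 and 2.26. The receptor gene IGF1R did not pass, at 0.09 ± 0.16 (adjusted p = 0.83). CD84, an adhesion receptor of the SLAM family that binds itself on neighbouring leukocytes, stood at 8.61, 8.65 and 8.54 in treated cells and at 6.29, 6.53 and 6.33 in vehicle cells, a rise of 2.22 ± 0.10 (adjusted p = 1.53e-11). For both genes the gap between the groups was far wider than the spread of the arrays within a group.

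F13A1 encodes the catalytic subunit of coagulation factor XIII, which monocytes make. It measured 7.97, 7.99 and 7.80 in treated cultures and 5.72, 6.30 and 5.61 in vehicle cultures, and rose by 2.05 ± 0.19 (adjusted p = 3.1e-07). ADA2, an adenosine deaminase that monocytes secrete, gave 8.10, 8.11 and 8.12 with the inhibitor, against 6.25, 6.23 and 6.44 with vehicle (1.80 ± 0.10, adjusted p = 4.24e-10). Treated arrays of ADA2 were nearly identical. CYP1B1, a cytochrome P450 of steroid and xenobiotic metabolism, was at 8.80, 8.86 and 8.88 in treated and 7.23, 7.33 and 7.06 in vehicle cultures (1.64 ± 0.13). TIMP2, an inhibitor of matrix metalloproteinases, rose by 1.11 ± 0.06, and its 2 other measured probe sets gave 1.16 and 1.08.

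TENT5A and BASP1 were among the 8 genes with the smallest adjusted p. TENT5A, a poly(A) polymerase that lengthens the tails of selected mRNAs, measured 10.97, 11.03 and 11.00 in treated cells, against 9.60, 9.59 and 9.68 in vehicle cells. Its change of 1.38 ± 0.06 had an adjusted p of 1.53e-11, and a second probe set gave 1.40. BASP1, a membrane-associated protein best known from nerve growth cones, stood at 10.84, 10.86 and 10.79 with the inhibitor and at 9.32, 9.36 and 9.48 without it (1.45 ± 0.07, adjusted p = 3.16e-11). DEPTOR, an inhibitory subunit of the mTOR kinase complexes, rose by 1.46 ± 0.09 to 9.36, 9.47 and 9.45 in treated cells, against 7.91, 8.0 and 8.0 in vehicle cells. SAMSN1, an adaptor that dampens lymphocyte receptor signals, rose by 1.54 ± 0.12, and MAML3, a coactivator of Notch, by 1.53 ± 0.16. The vehicle arrays of MAML3 were the most scattered of these 5 genes.

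A group of 8 rises began from dim vehicle signals, for which the background adjustment bears on the fold change. RAB27B, a GTPase of vesicle secretion, had 7.0, 6.74 and 6.57 in treated cells and 4.83, 4.25 and 4.08 in vehicle cells (2.39 ± 0.18). CD59, which blocks the membrane attack complex of complement, gave 6.07, 5.78 and 6.03 in treated cells, against 3.62, 3.15 and 3.36 in vehicle cells (2.58 ± 0.15). Its other probe sets ran to 2.37 and 1.64, with 1 at 0.23 and 1 at the lowest value. ENHO, which encodes the peptide adropin, showed 6.92, 6.10 and 6.28 with the inhibitor and 4.25, 3.04 and 3.43 with vehicle (2.86 ± 0.25). The others were CD86, ROBO1, CSGALNACT1, ATP1B1 and JAML, a leukocyte adhesion molecule, at 1.99 to 2.37. The vehicle mean of CD86, a costimulatory ligand, was 2.35, close to the lowest value, and a second probe set gave 0.20. A second probe set of ATP1B1, a sodium pump subunit, gave 1.24. Of the 8 genes, treated and vehicle arrays overlapped in 0, since the choice of the 8 required it.

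**Figure D2:**
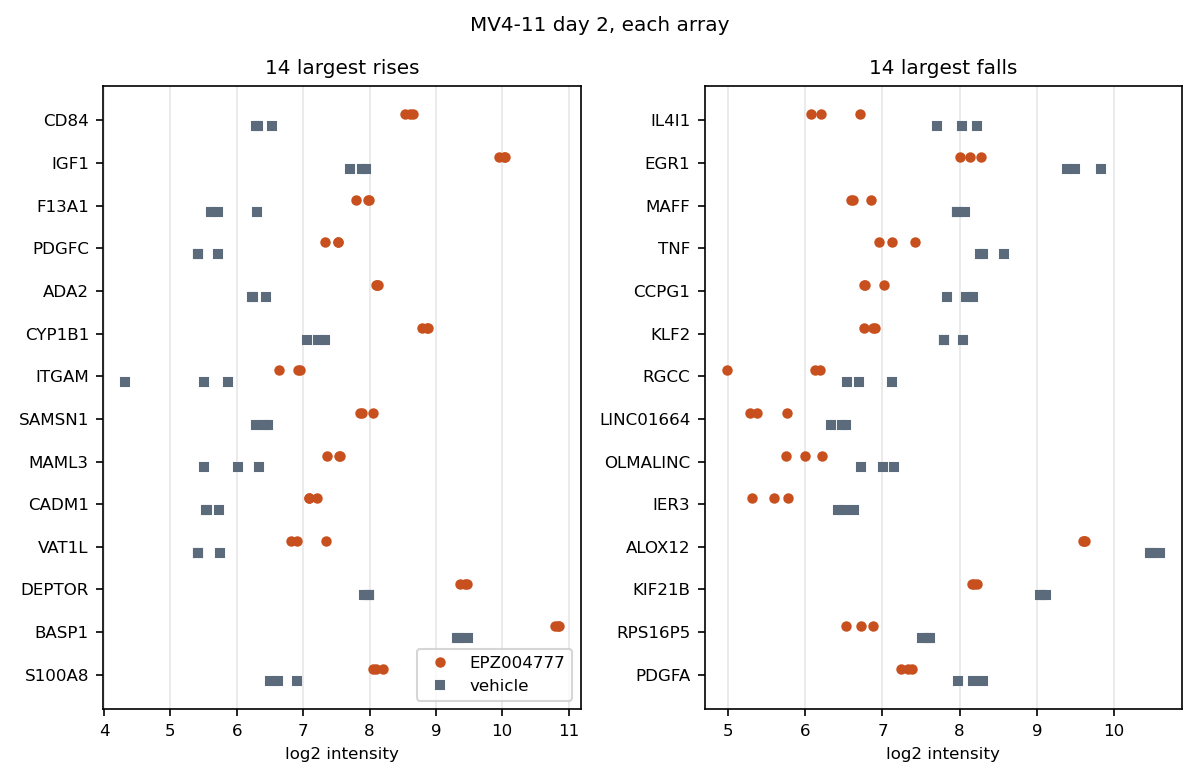
Log2 intensity of each array for the 14 largest rises (left) and 14 largest falls (right) among called genes whose group means were both at least log2 5, with EPZ004777 as circles and vehicle as squares. The groups do not overlap for any of the 28 genes, which the choice required, and ITGAM and RGCC show the widest spread within a group.

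Among the 14 largest rises, ITGAM was the least certain. ITGAM encodes the alpha chain of complement receptor 3 (CD11b), and it measured 6.93, 6.95 and 6.63 in treated cells, against 5.51, 5.87 and 4.32 in vehicle cells (1.60 ± 0.29, adjusted p = 0.000847). Vehicle replicate 3 lay more than 1 below the other vehicle arrays. The gene was not called when only the 6 arrays entered the fit, nor when vehicle cultures of day 6, which stood at 6.88, 6.60 and 5.68, replaced those of day 2.

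Falls were fewer and included transcription factors that cells induce within minutes of a stimulus. EGR3 had the largest fall, with 4.61, 4.04 and 4.27 in treated and 7.85, 6.91 and 7.26 in vehicle cultures (-3.04 ± 0.29, adjusted p = 6.49e-07). The treated arrays lay near the lower filter limit. MAFF, a small bZIP factor of the Maf family, measured 6.59, 6.85 and 6.62 in treated cells, against 8.07, 7.96 and 7.97 in vehicle cells (-1.32 ± 0.19, adjusted p = 0.00011). A second, dimmer probe set of MAFF gave -0.55. KLF2, a zinc finger factor of quiescence in leukocytes and endothelium, fell by 1.03 ± 0.23 on the log2 scale, and IER3, a stress-induced survival factor, by 0.96 ± 0.18. EGR1 stood at 8.13, 8.27 and 8.0 with the inhibitor and at 9.83, 9.49 and 9.39 with vehicle (-1.44 ± 0.46, adjusted p = 0.0448). The call of EGR1 was lost without any 1 of the 6 arrays.

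Of 26 immediate early genes fixed as a list, 21 were tested, and 8 were lower (38.1%, against 3.68% of all genes) and 2 higher (9.52%, against 8.82%), with a list median of -0.22. Besides those above, FOSL1, a partner in AP-1, fell by 0.64 ± 0.13, ZFP36, a factor that destabilises AU-rich mRNAs, by 0.32 ± 0.09, and IER2 by 0.29 ± 0.09, the last 2 of which lost their calls without any 1 of 4 arrays. KLF4 and IER5 were higher, by 0.70 ± 0.18 and 0.41 ± 0.09, but stood at -0.01 and 0.10 against day 6 vehicle cultures, where neither was called. FOS, JUN and JUNB did not pass, at -0.36, 0.45 and -0.26. Without 1 array the count of lower members was 5 to 7. This list and those below were chosen with earlier results of these data known. Their shares against all genes are therefore descriptive and no independent support. In the neighbouring list of genes of ERK output, DUSP7 and ETV4 were lower among 15 tested (13.3%), by 0.37 ± 0.07 and 0.47 ± 0.15, and the phosphatase DUSP6 measured 0.00 ± 0.10 (adjusted p = 1). ETV4, at an adjusted p of 0.0448, lost its call without either of treated replicates 1 and 2 or any vehicle array.

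**Figure D3:**
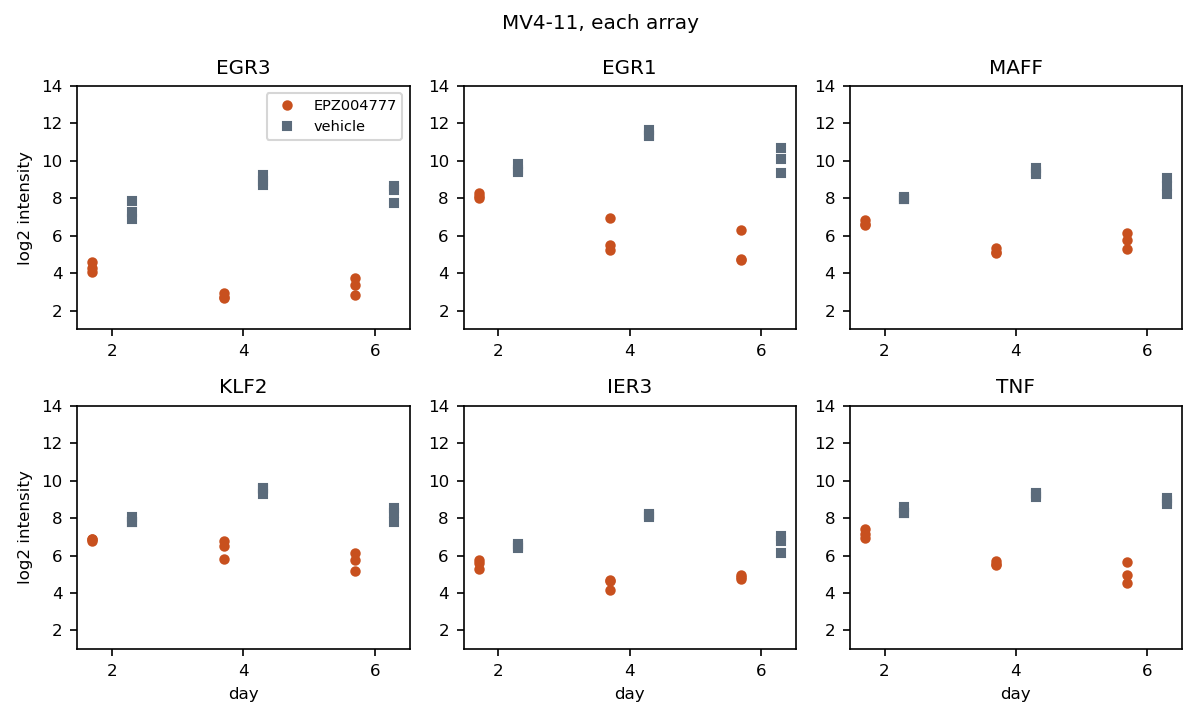
Log2 intensity of each MV4-11 array on days 2, 4 and 6 for 5 immediate early genes and TNF, with EPZ004777 as circles to the left of vehicle squares. Treated arrays lie below vehicle arrays of the same day in each panel, and vehicle levels are highest on day 4.

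Vehicle cultures themselves moved between days in these genes. EGR1 in vehicle cells had 9.83, 9.49 and 9.39 on day 2, 11.37, 11.33 and 11.64 on day 4, and 10.71, 10.12 and 9.35 on day 6. In treated cells its means were 8.13 on day 2, 5.89 on day 4 and 5.24 on day 6. Both lower treated levels and, on day 4, higher vehicle levels enter the gap of the later days.

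Falls outside the transcription factors included the inflammatory cytokine TNF. Its list of 14 tested inflammatory cytokines and chemokines had no direction as a whole, with 7 positive and 7 negative changes. In that list 2 genes were higher (14.3%, against 8.82% of all genes) and TNF alone was lower (7.14%, against 3.68%). TNF measured 7.42, 7.13 and 6.96 in treated cultures, against 8.57, 8.26 and 8.30 in vehicle cultures (-1.21 ± 0.21, adjusted p = 0.00072). IL4I1, a secreted amino acid oxidase of myeloid cells, had 6.07, 6.71 and 6.20 with the inhibitor and 8.22, 8.03 and 7.71 with vehicle (-1.66 ± 0.33). GPR84, a phagocyte receptor for medium-chain fatty acids, stood at 4.49, 3.47 and 2.96 in treated cells and at 5.71, 5.61 and 5.41 in vehicle cells (-1.94 ± 0.26). The choice of these 3 genes required groups that did not overlap, and the treated arrays of GPR84 were the most scattered. ALOX12, the platelet-type lipoxygenase, was the steadiest fall outside the excluded lists, with 9.60, 9.62 and 9.62 in treated and 10.60, 10.48 and 10.46 in vehicle cells (-0.90 ± 0.07, adjusted p = 2.2e-08). Further falls were those of CCPG1, a receptor for autophagy of the endoplasmic reticulum (-1.18 ± 0.15), the kinesin KIF21B (-0.88 ± 0.09) and LINC01664, a long noncoding RNA (-0.98 ± 0.20). KREMEN1, a Dickkopf receptor, gave -1.52 ± 0.24 from 1 dim probe set, and another at a like level gave 0.06. SLC13A3, a dicarboxylate transporter, was lower by 1 probe set with a treated mean of 2.57, close to the lowest value, so its fold change has no firm size, and its other probe sets gave 0.12, -0.04 and 0.

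Several falls were less certain. RHOB, RGCC, OLMALINC and the host transcript of miR-210, MIR210HG, changed by -1.54 ± 0.39, -1.02 ± 0.28, -0.97 ± 0.28 and -1.19 ± 0.32, and the call of each was lost without treated replicate 3, as well as without 1 or more others. RPS16P5 (-0.86 ± 0.18) is annotated as a ribosomal protein pseudogene, its probes could bind the parent transcript, and it stood at -0.20 against day 6 vehicle cultures, where it was not called.

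Promoter sequence was looked at for the 20 falls and 22 rises named for their size. The window was the 250 bases before each RefSeq gene start in GRCh38.p14, on the gene's strand. Entries were found for 12 falls and 15 rises. The CArG box, the site of serum response factor, was present on either strand in 3 of the 12 promoters of falls, in 0 of the 15 of rises and in 1.14% of 27305 promoters. The cyclic AMP response element TGACGTCA was present in 1 of 12, in 0 of 15 and in 1.77% of all. The AP-1 site TGANTCA was found in 1 of 12, that of OLMALINC, in 0 of 15 and in 6.6% of all, and TATAAA in 1 of 12, that of TNF, in 0 of 15 and in 11.1% of all. No matches to different motifs overlap in these promoters. The matches describe letters in a window and do not show binding. The 4 promoters with a CArG box or a cyclic AMP response element are printed 5′ to 3′, with the matches in capitals, since they belong to genes named here among the largest falls.
EGR1, chr5:138465229-138465478, plus strand, with CArG boxes that start 105 and 83 bases before the gene: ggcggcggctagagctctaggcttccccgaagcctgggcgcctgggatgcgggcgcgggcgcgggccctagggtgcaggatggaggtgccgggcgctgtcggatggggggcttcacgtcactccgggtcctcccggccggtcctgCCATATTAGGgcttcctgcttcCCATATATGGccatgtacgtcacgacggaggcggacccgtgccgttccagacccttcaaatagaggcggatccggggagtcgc
ALOX12, chr17:6995799-6996048, plus strand, with a CArG box 32 bases before the gene: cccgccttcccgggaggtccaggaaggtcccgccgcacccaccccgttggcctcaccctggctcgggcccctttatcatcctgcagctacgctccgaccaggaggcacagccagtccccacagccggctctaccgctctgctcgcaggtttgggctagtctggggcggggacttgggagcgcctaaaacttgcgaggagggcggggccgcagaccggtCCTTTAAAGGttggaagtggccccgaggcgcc
PDGFA, chr7:520227-520476, minus strand, with a CArG box 120 bases before the gene: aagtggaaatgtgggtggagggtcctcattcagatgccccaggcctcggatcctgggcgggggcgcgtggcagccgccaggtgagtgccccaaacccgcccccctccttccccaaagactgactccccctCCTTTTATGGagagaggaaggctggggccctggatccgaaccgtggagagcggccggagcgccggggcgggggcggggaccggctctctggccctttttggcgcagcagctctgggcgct
MAFF, chr22:38201744-38201993, plus strand, with a cyclic AMP response element 54 bases before the gene: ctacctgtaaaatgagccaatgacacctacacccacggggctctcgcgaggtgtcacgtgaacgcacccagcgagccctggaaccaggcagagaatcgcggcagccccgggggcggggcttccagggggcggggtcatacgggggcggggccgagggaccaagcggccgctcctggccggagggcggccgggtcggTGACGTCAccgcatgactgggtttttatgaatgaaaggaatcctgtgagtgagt

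Some families held members that moved in opposite directions on day 2. Of the platelet-derived growth factors, PDGFC had 7.53, 7.34 and 7.53 in treated cells, against 5.42, 5.72 and 5.42 in vehicle cells (1.95 ± 0.19, adjusted p = 7.56e-07). PDGFA, whose promoter is shown above, had 7.33, 7.24 and 7.38 with the inhibitor, against 8.30, 8.17 and 7.98 with vehicle (-0.83 ± 0.16, adjusted p = 0.00186). Both genes were chosen for groups that did not overlap. In chondroitin sulfate synthesis, CSGALNACT1, which adds the first N-acetylgalactosamine to the chain, measured 7.10, 7.32 and 6.97 in treated and 4.77, 4.71 and 4.94 in vehicle cells (2.32 ± 0.12, adjusted p = 1.42e-10). CHSY1, a polymerase that extends the chain, was at 11.88, 11.86 and 11.84 in treated and 12.54, 12.51 and 12.53 in vehicle cells (-0.67 ± 0.06, adjusted p = 6.08e-07). The sulfotransferases split as well, with CHST12 higher by 0.91 ± 0.19 and CHST11 lower, at -0.49 ± 0.07. Of 27 genes of glycosaminoglycan synthesis tested, 4 were higher (14.8%, against 8.82% of all genes) and 2 lower (7.41%, against 3.68%). The core protein gene SRGN did not pass, at -0.05. VCAN, another core protein gene, stood at the lowest value in all 6 arrays.

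Among 29 Rab GTPases and genes of granule secretion, 4 were higher (13.8%, against 8.82% of all genes) and 2 lower (6.9%, against 3.68%). Counts this small lie near those shares. RAB27B rose while its close relative RAB27A was lower, at 11.81, 11.88 and 11.85 in treated and 12.10, 12.10 and 12.22 in vehicle cells (-0.29 ± 0.09, adjusted p = 0.0346), a call lost without any 1 of the 6 arrays. RAB8A, of traffic to the plasma membrane, rose by 0.50 ± 0.07, and RAB14, of endosomes, changed by -0.24 ± 0.06, a call lost with the mean of probe sets and against day 6 vehicle cultures. The lipid mediator enzymes held 1 call in each direction among 11 tested (9.09% each, against 8.82% higher and 3.68% lower of all genes). LTA4H, which makes leukotriene B4, stood at 10.16, 10.12 and 10.16 with the inhibitor and at 9.43, 9.51 and 9.54 with vehicle (0.65 ± 0.08, adjusted p = 1.56e-05), opposite to ALOX12. ALOX5 stood at the lowest value in all 6 arrays.

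Of 29 growth factor and cytokine receptors tested, 7 were higher (24.1%, against 8.82% of all genes) and 3 lower (10.3%, against 3.68%), with a list median of 0.20. KIT, the receptor for stem cell factor, had 9.21, 9.09 and 9.37 in treated cells and 8.10, 8.21 and 7.93 in vehicle cells (1.14 ± 0.10, adjusted p = 1.28e-07). CSF3R, which binds the growth factor G-CSF, had 8.35, 8.21 and 8.22, against 7.45, 7.60 and 7.67 in vehicle cells (0.68 ± 0.08, adjusted p = 3.63e-06). The cytokine receptor chains IL10RA and IL13RA1 rose by 0.72 ± 0.15 and 0.52 ± 0.08. FLT3, the other receptor kinase of early progenitors, was lower at 11.85, 11.88 and 11.86 in treated and 12.19, 12.21 and 12.20 in vehicle cells (-0.33 ± 0.09, adjusted p = 0.0163), and its call was lost without treated replicate 1 or vehicle replicate 2. IL17RA, which binds interleukin 17, was lower by a steadier margin (-0.43 ± 0.07, adjusted p = 0.000249). AXL, a receptor for GAS6, rose by 1.61 ± 0.35 against the vehicle cultures of day 2, which stood at 4.20, 5.28 and 5.28, but was not called against those of day 6, which stood at 7.35, 6.49 and 5.46.

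Several chemokine receptors were higher. CX3CR1, the fractalkine receptor of monocytes, measured 9.69, 9.78 and 9.73 in treated cells, against 8.74, 8.57 and 8.47 in vehicle cells (1.14 ± 0.13, adjusted p = 4.84e-06). In vehicle cultures of day 4 it stood at 9.93, 9.59 and 10.0, and the call was lost against vehicle cultures of day 6. CXCR4, CXCR2 and CCR2, chemokine receptors of marrow retention and leukocyte recruitment, rose by 0.47 ± 0.07, 0.47 ± 0.09 and 0.40 ± 0.09, and CCR2 lost its call with the mean of probe sets. ADGRE5 (CD97), an adhesion receptor of leukocytes, was lower (-0.49 ± 0.08), as was GPR84. In all, 5 of 25 phagocyte G protein-coupled receptors tested were higher (20%, against 8.82% of all genes) and 3 lower (12%, against 3.68%). The list had no direction as a whole, with 12 positive and 13 negative changes and a median of -0.01. Of 23 axon guidance genes, 5 were higher (21.7%, against 8.82% of all genes) and 1 lower (4.35%, near the 3.68% of all genes). ROBO1, a receptor for SLIT proteins, had 6.27, 6.75 and 6.58 in treated and 3.72, 4.44 and 4.44 in vehicle cells (2.34 ± 0.22), NRP1, a coreceptor of semaphorins and VEGF, rose by 1.40 ± 0.25 and the semaphorin receptor PLXNC1 by 0.92 ± 0.11, while its relative PLXNA1 was lower (-0.41 ± 0.08).

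Several lists of mature myeloid function held calls by limma in the higher direction and 0 in the lower. Against day 6 vehicle arrays the lectin list below had 2 lower calls, complement 1 and myeloid transcription factors 3, and with only the arrays of the comparison the lectin and transcription factor lists had 2 lower calls each, while the lysosomal and S100 lists kept 0 in both settings. Of 30 lysosomal genes tested, 11 were higher (36.7%, against 8.82% of all genes), with a list median of 0.18 and 0 lower even at an unadjusted p under 0.05. FUCA1, which removes fucose from glycoproteins, had 10.77, 10.80 and 10.69 in treated cells, against 10.01, 10.05 and 10.17 in vehicle cells (0.67 ± 0.08, adjusted p = 1.32e-05). PSAP, the precursor of the saposins that help degrade sphingolipids, rose by 0.51 ± 0.07, GRN (progranulin) by 0.45 ± 0.08, the protease CTSB by 0.43 ± 0.08 and GM2A, the activator of ganglioside breakdown, by 0.41 ± 0.07, a call lost with the mean of probe sets. The proteases CTSD and CTSL and the membrane proteins LAMP1 and LAMP2 did not pass, at 0.10, 0.08, 0.06 and 0.03. The rises were modest, and the count without 1 array was 8 to 10.

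Of 30 tested lectins, Siglecs and immunoglobulin receptors of myeloid cells, 11 were higher (36.7%, against 8.82% of all genes), with a list median of 0.31 and 1 lower at an unadjusted p under 0.05. SIGLEC10, an inhibitory receptor for sialic acids, stood at 5.68, 5.70 and 5.51 in treated cells and at 4.42, 4.43 and 4.07 in vehicle cells (1.32 ± 0.14, adjusted p = 1.37e-06). CLEC12A, an inhibitory lectin receptor of myeloid cells, gave 5.69, 5.75 and 5.28 with the inhibitor, against 3.90, 3.93 and 3.88 with vehicle (1.67 ± 0.21), where vehicle arrays were near the bottom of the range. LILRA1 and LILRB2, immunoglobulin-like receptors, rose by 0.59 ± 0.06 and 0.60 ± 0.11, and the Fc receptor FCGR2A by 0.81 ± 0.16. TREM1, a receptor that amplifies inflammation, did not pass, at -0.56, from levels near the bottom of the range. Without 1 array the count of higher members was 8 to 10. SIGLEC6 (0.99 ± 0.29) lost its call without any 1 array other than vehicle replicate 3, and CD209 stood at -0.22 against day 6 vehicle cultures.

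Complement genes held 4 rises among 11 tested (36.4%, against 8.82% of all genes), with 0 lower by limma and 0 at an unadjusted p under 0.05. CFD, factor D of the alternative pathway, had 14.57, 14.56 and 14.56 in treated cells, against 14.04, 14.04 and 14.05 in vehicle cells (0.52 ± 0.05, adjusted p = 3.3e-07). Both groups of CFD lay close to the top of the range of the arrays, which ended at 16.11 in treated replicate 1. CFP (properdin), which stabilises the same pathway, rose by 0.83 ± 0.10. The other 2 were CD59 and ITGAM, which were already picked above for the size of their rise. The membrane regulators CD46 and CD55 did not pass, at 0.08 and 0.10. Of 16 S100 proteins and annexins tested, 5 were higher (31.2%, against 8.82% of all genes), and 0 were lower by limma or at an unadjusted p under 0.05. The 5 were S100A4, S100A6, ANXA1, ANXA5 and S100A8, of which S100A6 lost its call with the mean of probe sets and ANXA1 against day 6 vehicle cultures. S100A4 had 14.42, 14.37 and 14.40 in treated and 13.99, 14.11 and 14.05 in vehicle cells (0.34 ± 0.05), and S100A9, the partner of S100A8, did not pass, at 0.26.

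Adhesion genes gave 7 higher (25%) and 1 lower (3.57%) of 28 integrins, selectin ligands and tetraspanins tested, against 8.82% and 3.68% of all genes. Against day 6 vehicle arrays the list had 4 higher and 7 lower, so its direction depends on the vehicle cultures. ITGB7, the beta chain of gut-homing integrins, measured 9.41, 9.49 and 9.32 in treated cells, against 7.99, 8.07 and 8.29 in vehicle cells (1.29 ± 0.13, adjusted p = 7.56e-07). CD37, a leukocyte tetraspanin, rose by 0.76 ± 0.12, and ITGA5, the fibronectin receptor chain, was lower (-0.30 ± 0.07).

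Among 25 myeloid transcription factors tested, 5 were higher (20%, against 8.82% of all genes) and 0 lower by limma, with 2 lower at an unadjusted p under 0.05. BCL6, a repressor that also acts in monocytes, had 5.69, 5.52 and 5.57 in treated and 3.84, 4.01 and 3.88 in vehicle cells (1.68 ± 0.19, adjusted p = 3.84e-06). NFE2, known from megakaryocytes, rose by 0.62 ± 0.10 and TFEC, a macrophage relative of MITF, by 0.44 ± 0.08, a TFEC call lost with the mean of probe sets. The lineage factors SPI1, CEBPA and IRF8 did not pass, at -0.17, 0.05 and -0.03. TCF4, which drives plasmacytoid dendritic cells, was the only rise among 11 tested MLL-fusion targets and cofactors, with 9.97, 9.79 and 9.78 in treated cells, against 8.79, 8.62 and 8.66 in vehicle cells (1.16 ± 0.10, adjusted p = 9.22e-08). In that list MEF2C, PBX3 and FLT3 were lower, the first of these by 0.54 ± 0.06 on the log2 scale, while MEIS1 and MYB did not pass, at -0.04 and -0.14.

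DOT1L, the target enzyme, was lower by 0.55 ± 0.13 on the log2 scale (adjusted p = 0.00931), a call lost with the mean of its probe sets and against day 6 vehicle cultures, and KMT2A did not pass, at -0.14. Of 24 tested genes of the DOT1L and elongation complexes, 2 were higher (8.33%, against 8.82% of all genes) and 2 lower (8.33%, against 3.68%). The AFF1 gene, the partner in the fusion of this line, was lower by 0.24 ± 0.05, a call lost with the mean of probe sets, and its relative AFF3 was higher by 0.32 ± 0.09, a call lost without any 1 of 4 arrays and against day 6 vehicle cultures. Without 1 array the list had 0 to 1 higher members. Array probes do not separate the fusion transcript from that of the intact gene.

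Few proliferation genes were called on day 2. Of 38 cell cycle genes tested, 0 were higher by limma (1 at an unadjusted p under 0.05) and 3 lower (7.89%, against 3.68% of all genes), with a list median of -0.05. The G1 cyclin CCND3 was lower by 0.35 ± 0.07 on the log2 scale, a call lost with the mean of probe sets, and CCNA2 and CDC25A changed by -0.25 ± 0.07 and -0.31 ± 0.10, calls that were lost without most single arrays. MKI67, a marker of cycling cells, and MYC did not pass, at -0.21 and 0.08. Of 17 genes of MYC and ribosome biogenesis, 1 was lower (5.88%, against 3.68% of all genes). Of 21 interferon-stimulated genes, 1 was higher (4.76%, against 8.82%). Of 10 STAT5 output genes, 2 were lower (20%, against 3.68%), IL2RA at -0.98 and PIM3 at -0.22. Without 1 array the count of lower STAT5 output genes was 0 to 3. The call of PIM3 was lost without most single arrays, and that of IL2RA without treated replicate 1 or vehicle replicate 2. The other lists held calls in both directions, apart from costimulation ligands, against 8.82% higher and 3.68% lower over all genes. They were ion pumps and channels (4 higher and 3 lower of 32, 12.5% and 9.38%), p53 targets (3 and 2 of 16, 18.8% and 12.5%), neutrophil granule proteins (2 and 1 of 13, 15.4% and 7.69%), inflammatory cytokines (2 and 1 of 14, 14.3% and 7.14%) and costimulation ligands (2 and 0 of 15, 13.3% and 0%, with 2 lower at an unadjusted p). These counts are small. IL18, an inflammasome cytokine, was higher by 0.73 ± 0.19, opposite to TNF, a call lost without treated replicate 2 or 3 or vehicle replicate 3.

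**Figure D4:**
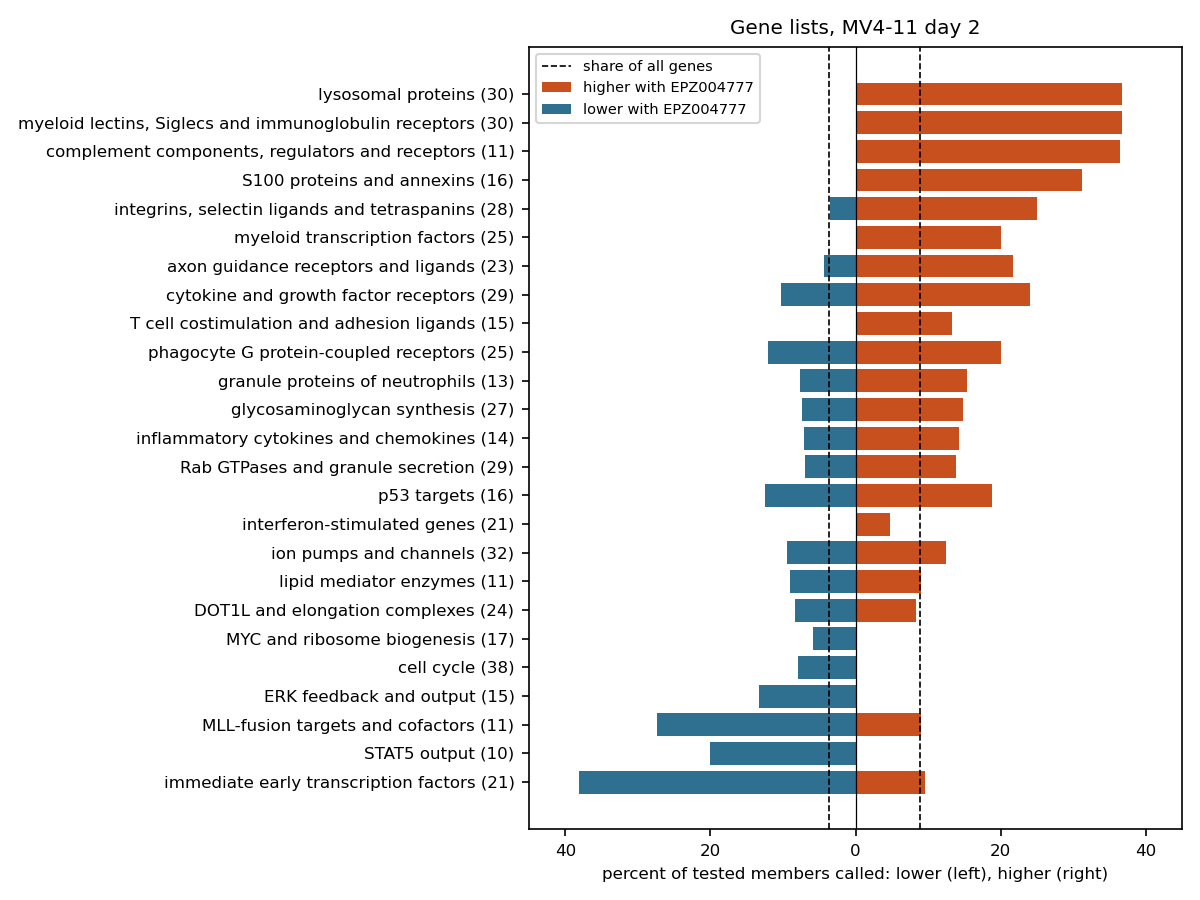
Percent of the tested members of 25 gene lists called higher (to the right) or lower (to the left) with EPZ004777 on day 2, with the number tested in parentheses. Dashed lines mark the shares of all genes, 8.82% higher and 3.68% lower. The lists were chosen with earlier results of these data known. Lysosomal and lectin genes reach 36.7% higher, and immediate early genes reach 38.1% lower.

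Most genes called on day 2 were called in the same direction later. Of the 968 higher genes, 871 (90%) were higher on day 4, when 46.2% of all genes were called and 25.2% were higher, and 876 (90.5%) on day 6, when 62% of all genes were called and 33.6% were higher. Of the 404 lower genes, 377 (93.3%) were lower on day 4 (21% of all genes) and 342 (84.7%) on day 6 (28.4% of all genes). Each day has its own vehicle cultures, but whether the days are separate cultures is not stated. Treated replicate 3 of day 6 stood apart in its 3′ to 5′ difference, at 1.911 against 0.826 and 0.861 in the other 2, and without it 880 and 346 genes kept their direction on day 6. The difference between the effects of day 6 and day 2 was itself tested. It passed for 39.6% of all genes and for 856 of the 1372, of which 84 had a smaller or opposite effect on day 6. Without any 1 of the 6 arrays of day 2, the 856 were 565 (treated replicate 3) to 593 (treated replicate 1). The 84 were then 43 (treated replicate 2) to 66 (treated replicate 1).

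IGF1 rose by 2.16 on day 2, 4.14 on day 4 and 4.91 on day 6, and F13A1 by 2.05, 4.56 and 5.10. ROBO1 rose by 2.34, 4.46 and 5.40, and its effect on day 6 exceeded that on day 2 (adjusted p = 4.24e-07). BASP1 was closer to its later size already on day 2, with 1.45, 1.65 and 2.10. CX3CR1 gave 1.14, 0.66 and 0.84, and its effects on day 6 and day 2 were not called different (adjusted p = 0.196). Among falls, ALOX12 changed by -0.90, -2.59 and -3.03, and EGR3 by -3.04, -6.19 and -4.98.

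**Figure D5:**
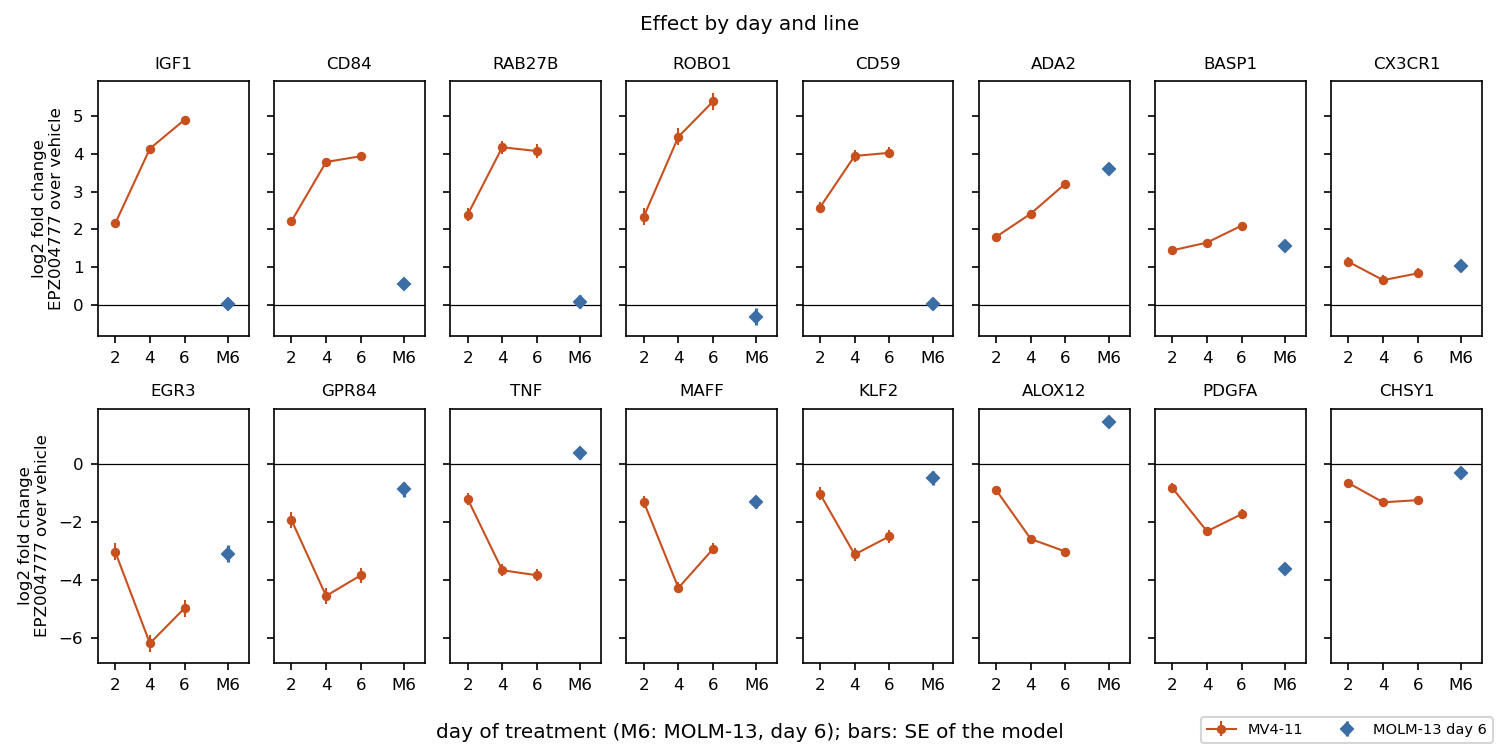
Log2 fold change of EPZ004777 over vehicle for 8 genes that were higher (top) and 8 that were lower (bottom) on day 2, in MV4-11 cells on days 2, 4 and 6 (circles) and MOLM-13 cells on day 6 (diamonds), with bars for the SE of the model. Most effects are larger on day 4 or 6 than on day 2, and IGF1, RAB27B, ROBO1 and CD59 were not called in MOLM-13 cells.

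A smaller set of genes was changed on day 2 and no longer so, or in the other direction, on day 6. The 10 with the largest such difference were FCAMR, FCER1A, FZD6, ERICH4, TEF, MAP2K6, SUZ12P1, GIMAP8, RXFP1 and PSMB9. PSMB9, a subunit of the immunoproteasome, had 10.05, 9.90 and 9.92 in treated and 9.18, 9.42 and 9.29 in vehicle cells on day 2 (0.66 ± 0.09, adjusted p = 7.79e-05), and its effect was 0.44 on day 4 and -0.12 on day 6. FCER1A, the alpha chain of the IgE receptor, had 7.01, 7.30 and 7.15 in treated and 6.33, 6.37 and 6.46 in vehicle cells (0.77 ± 0.17), and its effect on day 6 was -0.82. These genes depended on the vehicle cultures chosen. Against vehicle cultures of day 6, PSMB9 alone of the 10 kept its day 2 call, 7 lost it, and FCAMR and GIMAP8 turned, to -0.07 and -0.02.

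MOLM-13, a line labelled with the MLL-AF9 fusion, was sampled only on day 6, so its effects cannot be set against day 2 at a matched time. Of the 968 genes higher on day 2, 497 (51.3%) were higher in MOLM-13 cells, where 65.8% of all genes were called and 29.3% were higher, and 164 (16.9%) were lower. Of the 404 lower genes, 224 (55.4%) were lower there, against 36.5% of all genes, and 63 (15.6%) were higher. IGF1, CD59, RAB27B and ENHO did not pass in MOLM-13 cells, at 0.03, 0.03, 0.08 and 0.04, while ADA2, F13A1, CYP1B1 and CSGALNACT1 rose there too, by 3.61, 1.91, 2.31 and 1.58. PDGFC, SAMSN1 and VAT1L were lower in MOLM-13 cells, at -0.53, -0.76 and -0.56, and ALOX12 and IER3 were higher, at 1.44 and 1.00. The 3′ to 5′ difference was 2.102 to 2.84 in treated and 0.954 to 1.153 in vehicle MOLM-13 arrays, and its part in these values was not tested.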

How the data were processed

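Expression was measured on Affymetrix U133 Plus 2 arrays in 24 samples of 8 groups, named from their titles. The deposited values are linear intensities that the authors normalized with GCRMA, per the submitters' processing notes (version not given in the sources used here). GCRMA adjusts the background by probe sequence, which draws dim probe sets to a common lowest value and makes changes from low levels uncertain. Intensities were turned into log2 with a pseudocount of 0. Of 54675 probe sets, 41097 had 1 gene symbol, 1801 several and 11777 none. Probe sets at log2 4 or more in at least 3 arrays were kept, and the brightest on average was taken for each gene, which left 10971 genes.

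Group means over all 24 arrays were fitted with limma 3.58.1 in R 4.3.3 (lmFit, eBayes), so that all groups share 1 estimate of the spread. P-values were adjusted by Benjamini-Hochberg over all genes, with 0.05 as the threshold for a call. All adjusted p-values in the text come from limma. With 3 arrays against 3, an exact permutation test of 1 gene cannot go below 0.1. In data simulated for the day 2 comparison with 10971 genes, 73 of 100 genes changed by 0.5 and 98 of 100 changed by 1 on the log2 scale were recovered, with 9 false calls. The number of arrays limits the precision. Python 3.11.15 with pandas 2.3.3 and matplotlib 3.10.9 was used for summaries and figures.

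Named genes were the 14 largest rises and 14 largest falls among called genes with groups that did not overlap and both means at least log2 5, the 8 largest rises and 6 largest falls with 1 mean under log2 5, the 8 smallest adjusted p, the 10 early genes described, members of 26 gene lists, DOT1L, KMT2A and the cell type markers. The 3 lists left aside entered none of these choices. The result of 1 of the 26 lists is not reported here. The genes, lists and rules were chosen with earlier results of these data known. Alternatives covered the filter, the arrays in the fit, the variance prior, the choice of probe set, further normalization, the replicate number, the 3′ to 5′ difference, the day 6 vehicle arrays and each array left out. Leaving out treated replicate 3 of day 6 was added after seeing the data. Deviations of same-numbered arrays had correlations of 0.0114, -0.261 and -0.0328 on day 2 and of 0.00642, 0.0961 and 0.0925 on day 6. The numbers were not taken to pair the samples, though groups of 3 arrays cannot show that pairing is absent.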

Additional observations from a re-analysis of the deposited data

Results flagged for a closer look

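For 48 named genes the effect of EPZ004777 differed between day 6 and day 2 of MV4-11 cells, tested in limma as the difference of the effects (adjusted p 3.55e-12 to 0.0445). The same test passed for 39.6% of all genes. The 48 were among the genes chosen by size, smallest adjusted p or such a difference, and genes named only through the lists are not included. The values in parentheses are the effect on day 6 minus that on day 2, on the log2 scale. The rise was larger on day 6 for ADA2 (1.42), BASP1 (0.66), CADM1 (1.14), CD59 (1.45), CD84 (1.73), CD86 (1.14), CSGALNACT1 (2.24), CYP1B1 (2.38), DEPTOR (1.47), ENHO (2.20), F13A1 (3.05), IGF1 (2.75), PDGFC (1.32), RAB27B (1.69), ROBO1 (3.06), S100A8 (2.47), SAMSN1 (1.34), TENT5A (2.02) and TIMP2 (1.19). The fall was larger on day 6 for ALOX12 (-2.12), CCPG1 (-0.61), EGR1 (-3.38), EGR3 (-1.94), GPR84 (-1.91), IER3 (-0.83), IL4I1 (-3.37), KIF21B (-1.25), KLF2 (-1.47), KREMEN1 (-1.01), LINC01664 (-0.74), MAFF (-1.62), MIR210HG (-2.83), OLMALINC (-2.52), PDGFA (-0.90), RGCC (-2.44), RHOB (-1.60) and TNF (-2.64). The difference ran against the day 2 effect for ERICH4 (-1.04), FCAMR (-2.16), FCER1A (-1.59), FZD6 (-1.04), GIMAP8 (-0.84), MAP2K6 (-0.87), PSMB9 (-0.78), RPS16P5 (0.70), RXFP1 (-0.81), SUZ12P1 (0.85) and TEF (0.89). All but RPS16P5 of these were chosen for such a difference, so the test restates the choice. Treated replicate 3 of day 6 had a 3′ to 5′ difference of 1.911. Without it, 48 of 48 differences kept their sign and 42 of 48 were still called, and the adjusted p was 0.0681 for CCPG1, 0.0906 for FZD6, 0.062 for KREMEN1, 0.0852 for LINC01664, 0.0594 for RHOB and 0.125 for RPS16P5, whose difference was 0.44. Groups of 3 arrays were too small for a statistical test of single outlying arrays, which the fits without 1 array do not replace.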

How the results depend on the processing

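The count of 1372 called genes was 1128 without the filter, 1377 with the filter at log2 6, 1938 with only the arrays of the comparison, 1441 with a trended and robust prior, 1196 with the mean of probe sets, 1305 after quantile normalization, 1731 with the 3′ to 5′ covariate and 1521 against day 6 vehicle arrays. Leaving out 1 array gave 909 to 1751 called, 658 to 1176 higher, 209 to 575 lower, 136 to 147 at 2-fold, 565 to 1044 that differed on day 6 and 43 to 103 smaller or opposite there, where the highest counts of called, higher and lower genes came without treated replicate 3 of day 6. The lower genes numbered 671 with only the arrays of the comparison. The mean of probe sets left 73 genes at 2-fold. Centring on a common median gave 847 higher and 532 lower. Whether the replicate numbers pair the samples is not known, and with the replicate number as a block 999 genes were called, 751 higher and 248 lower. Against day 6 vehicle arrays 124 of 169 named genes kept their call, 36 lost it and 9 turned: FCAMR (-0.066), GIMAP8 (-0.019), CD209 (-0.22), CD44 (-0.17), CD70 (-0.033), ID2 (-0.13), IFNGR1 (-0.031), KLF4 (-0.0075) and RAB8B (-0.11). The cause was not tested. Genes near the lowest value limit what can be measured.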
